A study of Rattus norvegicus with 6 samples.

Results

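Transcripts of 8 genes that carry or curb the autonomic signal to the heart were followed in rat myocardium with and without 30 min of ischemia. They are the adrenergic receptor genes Adrb1, Adrb3, Adra1a and Adra1b, the muscarinic receptor gene Chrm2, the adenylyl cyclase genes Adcy5 and Adcy6, and the receptor kinase gene Grk5. They were picked by gene name, with earlier results of these data known, by a rule that uses no measured value, and each had 1 row among the 32623 genes of the deposited table. All 8 passed the filter for testing, a mean FPKM (fragments scaled by gene length and library size) of 0.5 or more across the 6 samples, as did 13964 genes in all.

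Total RNA of the myocardium had been sequenced in 3 sham and 3 ischemia samples. The rats were male, of genotype WT, were ventilated under isoflurane anesthesia and had a left thoracotomy. In the ischemia group, a 6-0 suture tied over a PE-10 tube closed the left anterior descending coronary artery, and a raised ST segment showed the occlusion. For the sham rats no suture or ligation is described, so the groups differ in coronary closure and, as far as the sources go, may differ in surgery around the artery. Strain, age and the part of the heart that was sampled were not given in the sources used here. Nothing in the labels names separate animals, so p-values measure the spread between these samples. Total counts ran from 68529126 to 79591989 per library.

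Noradrenaline and adrenaline reach the myocyte through beta receptors, which couple to the stimulatory G protein Gs and switch on adenylyl cyclase, and through alpha-1 receptors, which couple to Gq and phospholipase C. Acetylcholine from the vagus acts on the muscarinic M2 receptor, which couples to Gi and holds cyclase back. Cyclic AMP then activates protein kinase A, which speeds and strengthens the beat, and G protein-coupled receptor kinases switch an occupied receptor off.

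Several libraries stood apart before any member was compared. On the first principal component, which held 56% of the variance, the sham libraries lay at -80.9, -67 and -85.9, ischemia replicate 1 at 14.3 and the other ischemia libraries at 137 and 82.8. The summed FPKM of 4 atrial genes (Myl7, Sln, Myl4 and Bmp10) was 15120 in sham replicate 1 and 14230 in sham replicate 3, against 147.8 in sham replicate 2. Ischemia replicate 1 had 2180, and the other ischemia libraries had 27.44 and 28.42. The labels name the tissue only as myocardium. Its 8 cardiomyocyte genes were abundant everywhere, with a summed FPKM from 11100 in ischemia replicate 2 to 34230 in sham replicate 2. They did not move together. Myl2 and Myl3, the ventricular light chains, had 366 and 796 FPKM in sham replicate 1 and 346.4 and 1021 in sham replicate 3, against 2795 and 9024 in sham replicate 2. Myh6 and Ryr2 were lower in every ischemia library than in any sham library, with log2 fold changes of -2.38 and -1.51 and adjusted p of 0.051 and 0.0696 by edgeR. Sham replicate 1 had 26 counts on 3 Y-linked genes and the other libraries had 1772 to 4318, although all were labelled male. The 6 neutrophil and monocyte genes summed to 102.4 to 181 FPKM in sham and 1227 to 8274 in ischemia, and all 6 were higher in ischemia by the test used below. In bulk tissue, fewer cells of a type and less RNA per cell cannot be told apart.

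Of the 8 genes, 1 was higher in ischemia at an adjusted p under 0.05 by edgeR's quasi-likelihood test, 0 were lower and 7 did not pass. Over all tested genes 5.18% were higher and 1.53% were lower. The 1 gene was Grk5, and the other 7 had negative log2 fold changes. At an unadjusted p under 0.05 the test gave 1 higher and 3 lower, beside 18.2% higher and 14.2% lower over all tested genes. DESeq2 called 1 higher and 3 lower at its adjusted threshold, beside 15.1% and 12.6% of all tested genes. The median log2 fold change of the 8 was -1.20, beside -0.0015 over all tested genes. In 4 of the 8 the sham and ischemia libraries did not overlap on scaled counts, 3 lower and 1 higher in ischemia, beside 41.1% of all tested genes.

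**Figure D1:**
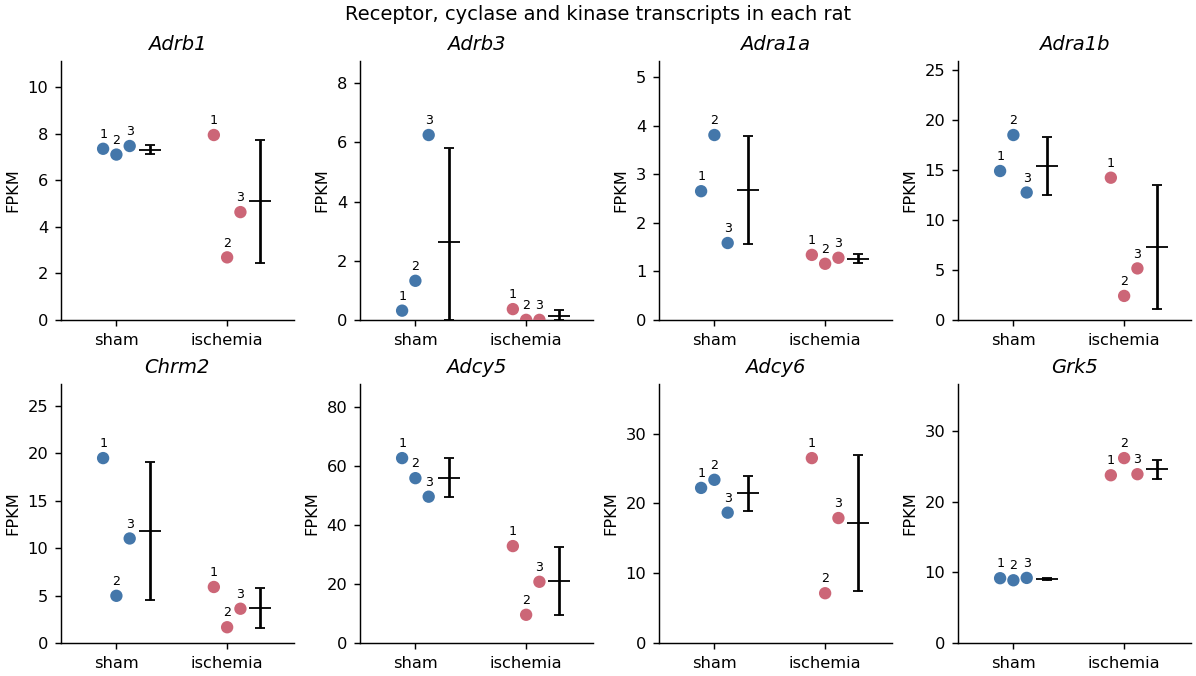
FPKM of the 8 genes in each library (points, numbered by replicate; blue, sham; red, ischemia), with the mean and SD of the 3 libraries of a group as a bar that is cut at 0. Grk5 lies at 8.88 to 9.22 in sham and 23.8 to 26.2 in ischemia, and Adcy5 lies at 49.6 or more in sham and at 32.9 or less in ischemia.

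Grk5 encodes a kinase that phosphorylates activated beta receptors and is abundant in heart muscle. The table placed it on chromosome 1 from 282265370 to 282462605, plus strand. Taking replicates 1 to 3 in turn, here and below, its FPKM was 9.18, 8.88 and 9.22 in sham against 23.8, 26.2 and 23.9 in ischemia. The groups were far apart and each was tight, with means of 9.09 ± 0.18 and 24.6 ± 1.36 (SD, n = 3 each). Grk5 was 2.54-fold higher in ischemia, a log2 fold change of 1.34 ± 0.16 (SE), with an unadjusted p of 0.000103 and an adjusted p of 0.0272 by edgeR. Ischemia replicate 1, the ischemia library nearest to sham on the first component, had as much Grk5 as ischemia replicate 3.

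With single libraries left out, the size of the Grk5 difference moved little while its call did not always hold. The adjusted p rose to 0.157 without sham replicate 1, 0.0828 without sham replicate 2, 0.125 without sham replicate 3 and 0.111 without ischemia replicate 3, at log2 fold changes of 1.30, 1.43, 1.28 and 1.33. In none of these fits did any gene pass. The smallest adjusted p of all tested genes by edgeR was 0.127, 0.0828, 0.0657 and 0.0552 in the same order. Without both atrial-rich sham libraries, 1 and 3, the log2 fold change of Grk5 was 1.17. That fit, here and for the genes below, sets 3 ischemia libraries against 1 sham library, takes its spread from the ischemia libraries alone and assumes that sham varied like them, so its p carries little. It was 1.21 (adjusted p 0.226) with an atrial score as a covariate, 1.28 (0.405) with an adipocyte score, and 2.01 (0.0979) with libraries scaled to the 8 cardiomyocyte genes, whose members moved unequally as given above, a scaling that moved the median of all genes to 0.64. Grk5 rose with the neutrophil and monocyte genes, with a correlation of 0.953 over the 6 libraries. Across the ischemia libraries those genes ran from 1227 through 1942 to 8274 FPKM. Grk5 ran from 23.8 through 23.9 to 26.2 in the same order. The part of the neutrophil and monocyte genes in the result was not tested.

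Grk2, the other main receptor kinase of the heart, had 23.7, 24.4 and 26.2 FPKM in sham and 30.8, 40.9 and 33.5 in ischemia, with a log2 fold change of 0.40 ± 0.17 and an adjusted p of 0.163 by edgeR. Grk6 had 6.28, 5.98 and 6.35 FPKM in sham and 8.88, 15.3 and 9.89 in ischemia, without overlap. Its log2 fold change was 0.76 ± 0.22 with an adjusted p of 0.077 by edgeR. Grk3 and Grk4 had 0.52 and -0.05, with adjusted p of 0.518 and 0.951. The ratio of Grk5 to Grk2 was 0.387, 0.364 and 0.351 in sham against 0.772, 0.641 and 0.715 in ischemia. The groups did not overlap, and the ratio was higher in ischemia by 0.95 on the log2 scale. A two-sided exact permutation test gave p = 0.1, the smallest that 3 against 3 allows, and 0.25 after adjustment over the 5 ratios tested. A ratio within a library does not depend on how libraries are scaled.

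The 250 bases before the annotated start are shown for the gene that passed the test, Grk5, for Adcy5, which had the smallest p of the genes that were lower, and for Adrb1, the main cardiac beta receptor. They come from RefSeq on the assembly GRCr8, whose coordinates are not those of the deposited table, and 5 of the 8 genes had an entry. Each reads 5′ to 3′ along the gene. Capitals mark a match on either strand to 1 of 4 motifs, namely the cyclic AMP response element TGACGTCA, its shorter form TGACG (which every TGACGTCA contains), the AP-1 site TGANTCA and the GC box GGGCGG.
Grk5, chr1:270014086-270014335, plus strand: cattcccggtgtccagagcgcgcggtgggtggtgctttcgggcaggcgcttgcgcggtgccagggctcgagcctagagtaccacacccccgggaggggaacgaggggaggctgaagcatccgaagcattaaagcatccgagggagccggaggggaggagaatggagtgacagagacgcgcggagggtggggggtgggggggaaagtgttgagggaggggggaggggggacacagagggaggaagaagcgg
Adcy5, chr11:79123344-79123593, minus strand: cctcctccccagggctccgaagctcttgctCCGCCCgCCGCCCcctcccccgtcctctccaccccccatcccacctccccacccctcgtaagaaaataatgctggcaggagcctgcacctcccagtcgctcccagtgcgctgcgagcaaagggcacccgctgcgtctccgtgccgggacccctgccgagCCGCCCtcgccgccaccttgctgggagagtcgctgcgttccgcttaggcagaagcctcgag
Adrb1, chr1:265776853-265777102, plus strand: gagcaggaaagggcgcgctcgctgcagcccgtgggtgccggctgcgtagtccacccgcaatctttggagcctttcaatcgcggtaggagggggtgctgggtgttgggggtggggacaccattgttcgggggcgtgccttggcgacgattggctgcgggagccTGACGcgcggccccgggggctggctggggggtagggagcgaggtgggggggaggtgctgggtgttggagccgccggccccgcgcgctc
The Grk5 stretch holds none of the 4 motifs in these letters. The Adcy5 stretch holds 3 GC boxes on the opposite strand, the nearest ending 56 bases before the start, and Chrm2 holds 1. The Adrb1 stretch holds 1 TGACG, 88 to 84 bases before the start. Among 33469 promoters of the same length, 30.5% hold a GC box, 18.2% hold TGACG, 6.3% hold TGANTCA and 1.6% hold TGACGTCA. All 3 stretches are rich in G and C, at 67.2%, 70.0% and 72.0% beside a median of 51.2%. These matches are letters in a sequence and say nothing of binding in these hearts.

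Adrb1 encodes the beta-1 receptor, the main target of noradrenaline in the ventricle. Its row lay on chromosome 1 from 277537585 to 277538985, plus strand. FPKM was 7.35, 7.10 and 7.47 in sham and 7.94, 2.68 and 4.63 in ischemia. In FPKM, sham was nearly constant and ischemia replicate 1 lay above it, while in scaled counts ischemia replicate 1, at 11.35 CPM, lay inside the sham range of 10.3 to 12.3. Ischemia replicates 2 and 3 lay below sham on both scales, and the groups overlapped. The log2 fold change was -0.60 ± 0.43, with an adjusted p of 0.357 by edgeR. It was -1.08 (adjusted p 0.0918) without ischemia replicate 1 and -0.26 (0.602) without ischemia replicate 2.

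Adrb3 encodes the beta-3 receptor, which is best known from fat cells, where it drives lipolysis and heat production. The table placed it on chromosome 16 from 69003868 to 69006632, plus strand. It had 52, 232 and 983 counts in sham and 65, 0 and 0 in ischemia, or 0.311, 1.32 and 6.25 FPKM in sham and 0.364 FPKM in ischemia replicate 1. Sham replicate 3 alone held most of the reads, and ischemia replicate 1 lay above sham replicate 1. A count of 0 allows up to 0.0374 CPM (counts scaled to library size) in ischemia replicate 2 and 0.0450 in ischemia replicate 3, taking 3 counts as the limit, which covers counting error only. The fitted log2 fold change of -4.43 ± 2.01 depends on how zeros are treated, and its adjusted p was 0.18 by edgeR. Without ischemia replicate 1 the adjusted p was 0.0442, but both remaining ischemia libraries then had 0 counts and the gene passed the filter through sham alone, so that call is no support for a difference. In the fits without sham replicate 1, sham replicate 2, ischemia replicate 2 or ischemia replicate 3 the adjusted p was 0.236 to 0.321.

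Genes of fat moved with Adrb3 from library to library. Adipoq, Plin1, Cidec and Lep summed to 20.3, 36.5 and 186.7 FPKM in sham and to 18.8, 0.372 and 0.207 in ischemia, the same order as Adrb3 apart from sham replicate 1 against ischemia replicate 1 and the pair of zeros. With Fabp4 included, which endothelial cells also express, the list ran from 474.4 to 1154 FPKM in sham and from 392.7 to 679.3 in ischemia. Ucp1, which marks brown fat, had 16, 1591 and 9650 counts in sham and 21, 0 and 0 in ischemia. Cidea, another gene of brown fat, differed from it in order, with 152.6, 72.1 and 248.1 FPKM in sham and 76.6, 16.4 and 36.7 in ischemia. Across the 6 libraries the correlation of Adrb3 with the mean log2 CPM of the adipocyte list was 0.996, a description over libraries that also differ in group. With the score of Adipoq, Plin1, Cidec and Lep as a covariate, the log2 fold change of Adrb3 was 0.05. That covariate was chosen after seeing the data and follows Adrb3 almost exactly, so this fit restates the correlation, and the part of the fat RNA in the difference was not tested.

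**Figure D2:**
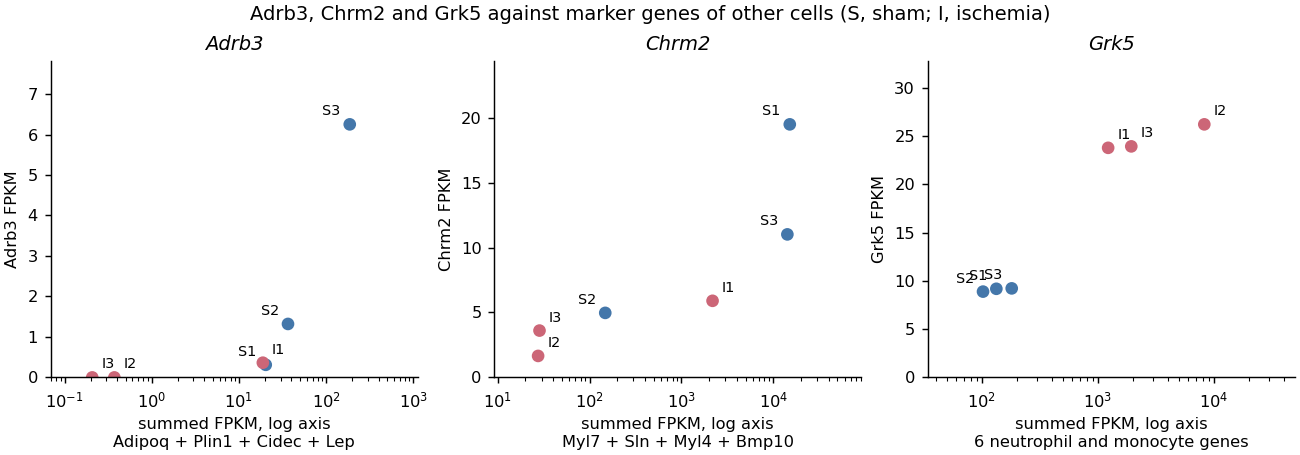
FPKM of Adrb3, Chrm2 and Grk5 (vertical axes) against the summed FPKM of marker genes of fat, atrium, and neutrophils and monocytes (horizontal log axes), 1 point per library. Adrb3 and the fat genes are both highest in sham replicate 3, and Chrm2 is highest in the atrial-rich sham replicates 1 and 3. Grk5 and the neutrophil and monocyte genes are both higher in every ischemia library than in any sham library.

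Adra1a and Adra1b encode the alpha-1A and alpha-1B receptors, which feed the Gq pathway. Adra1a lay on chromosome 15 from 43298794 to 43392451, plus strand, with 2.65, 3.81 and 1.58 FPKM in sham and 1.34, 1.16 and 1.28 in ischemia. Every ischemia library lay below every sham library, and the ischemia libraries were close together. The log2 fold change was -1.23 ± 0.45, with an unadjusted p of 0.0317 and an adjusted p of 0.123 by edgeR, and DESeq2 gave an adjusted p of 0.0416. With 1 library left out it ran from -0.73 (adjusted p 0.273), without sham replicate 2, to -1.54 (0.14), without sham replicate 3, and with libraries scaled to the cardiomyocyte genes it was -0.44 with an adjusted p of 0.749, or -1.08 against the median of all genes. Adra1b, on chromosome 10 from 29392762 to 29450644, minus strand, was the more abundant, with 14.9, 18.5 and 12.7 FPKM in sham and 14.2, 2.40 and 5.15 in ischemia. Ischemia replicate 1 lay inside the sham range and the other ischemia libraries lay below it. Its log2 fold change was -1.18 ± 0.66 with an adjusted p of 0.251, and -2.12 with an adjusted p of 0.0417 by edgeR without ischemia replicate 1. With any other library left out it ran from -1.36 to -0.74, with adjusted p from 0.315 to 0.476, and with the adipocyte covariate it was -0.20 (adjusted p 0.977).

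No difference in the balance between these receptors could be read from 3 libraries a group. The ratio of Adra1a to Adra1b was 0.178, 0.206 and 0.124 in sham and 0.0942, 0.483 and 0.249 in ischemia, with a log2 difference of 0.44 and p = 0.6 in the exact permutation test, whose smallest p is 0.1. With 1 library left out the difference ran from -0.12 to 1.06. The third alpha-1 gene, Adra1d, which is known from arterial smooth muscle, had a log2 fold change of -2.13 ± 0.86 and an adjusted p of 0.148 by edgeR. Its FPKM was 0.505, 4.996 and 3.09 in sham against 0.928, 0.422 and 0.822 in ischemia, so sham replicate 1 fell inside the ischemia range. Without sham replicate 2, which had the most, the log2 fold change was -1.27 with an adjusted p of 0.363 by edgeR, and with all libraries DESeq2 gave an adjusted p of 0.0386.

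Chrm2 encodes the M2 receptor through which the vagus slows the heart, and it is denser in atrium than in ventricle. Its row lay on chromosome 4 from 64088900 to 64091090, plus strand. FPKM was 19.5, 4.97 and 11.01 in sham and 5.90, 1.66 and 3.61 in ischemia. Sham replicate 2 lay below ischemia replicate 1 in FPKM and just above it in scaled counts, at 13.5 against 13.2 CPM. The log2 fold change was -1.68 ± 0.61, with an unadjusted p of 0.0307 and an adjusted p of 0.121 by edgeR, and DESeq2 gave an adjusted p of 0.0266. With 1 library left out it ran from -1.17, without sham replicate 1, to -2.18, without ischemia replicate 1, with adjusted p from 0.0693 to 0.293.

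The sham libraries with the most Chrm2 were those with the most atrial RNA, and the correlation of Chrm2 with the mean log2 CPM of the atrial genes was 0.86 over the 6 libraries, beside 0.879 with the fibroblast genes and -0.89 with the neutrophil and monocyte genes. With the atrial score as a covariate the log2 fold change was -0.75, with an adjusted p of 0.571 by edgeR, and against sham replicate 2 alone it was -0.70. Kcnj3 and Kcnj5, which form the potassium channel that the M2 receptor opens in atrium and pacemaker tissue, followed the same libraries. Kcnj3 had 33.1, 5.15 and 21.8 FPKM in sham against 3.92, 0.441 and 0.931 in ischemia, a log2 fold change of -3.49 ± 1.001 with an adjusted p of 0.0787 by edgeR. Kcnj5 had a log2 fold change of -1.26 ± 0.73 with an adjusted p of 0.266. DESeq2 gave adjusted p of 0.000658 and 0.167. Without ischemia replicate 1 the log2 fold changes were -4.86 (adjusted p 0.0274 by edgeR) and -1.97 (0.113), with the atrial covariate they were -1.95 (0.289) and -0.09 (0.955), and against sham replicate 2 alone they were -1.82 and -0.029. The ratio of Adrb1 to Chrm2 was 0.377, 1.43 and 0.678 in sham and 1.35, 1.62 and 1.28 in ischemia. Sham replicate 2 lay among the ischemia libraries, and the exact permutation test gave p = 0.3 for a log2 difference of 0.98, which was 0.52 without sham replicate 1 and 1.48 without sham replicate 2.

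Adcy5 and Adcy6 encode the calcium-inhibited adenylyl cyclases that make most of the cyclic AMP of the heart. Adcy5, on chromosome 11 from 68695839 to 68842320, minus strand, had 62.7, 55.9 and 49.6 FPKM in sham and 32.9, 9.55 and 20.7 in ischemia. All ischemia libraries lay below all sham libraries, with means of 56.1 ± 6.55 and 21.05 ± 11.65 (SD, n = 3 each). The log2 fold change was -1.49 ± 0.47, with an unadjusted p of 0.0182 and an adjusted p of 0.0955 by edgeR. DESeq2 gave an adjusted p of 0.0127, and without ischemia replicate 1 edgeR gave -1.96 with an adjusted p of 0.041. With any other library left out it ran from -1.62 to -1.11, with adjusted p from 0.0859 to 0.232. Ischemia replicate 2 had the least Adcy5, Adcy6, Adrb1, Adra1b, Adra1a and Chrm2 of all libraries. It also had the lowest sum of the cardiomyocyte genes, 11100 FPKM against 22850 and 20660 in the other ischemia libraries and 19660, 34230 and 18090 in sham. Sham replicates 1 and 3 lay below ischemia replicates 1 and 3 in that sum and above them in Adcy5. The part of these cells in the differences was not tested. With libraries scaled to the cardiomyocyte genes, the log2 fold change was -1.08 for Adcy5, -0.76 for Adra1b, -0.17 for Adrb1 and 0.018 for Adcy6, with adjusted p of 0.287, 0.512, 0.9 and 0.989. Against the median of all genes, which that scaling moved to 0.64, these were -1.72, -1.40, -0.81 and -0.62, beside -1.49, -1.18, -0.59 and -0.40 with the usual scaling.

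Adcy6, on chromosome 7 from 140270692 to 140291620, minus strand, had 22.2, 23.4 and 18.7 FPKM in sham and 26.5, 7.13 and 17.9 in ischemia. In FPKM, ischemia replicate 1 lay above every sham library and the others below, and the log2 fold change was -0.40 ± 0.49 with an adjusted p of 0.592 by edgeR. It was -0.0065 without ischemia replicate 2 and -0.86 without ischemia replicate 1, with adjusted p of 0.991 and 0.241. Set against each other within a library, the cyclases separated the groups. The ratio of Adcy5 to Adcy6 was 2.82, 2.39 and 2.66 in sham against 1.24, 1.34 and 1.16 in ischemia. The log2 difference was -1.07, and the spread within each group was 0.12 and 0.10 (SD, n = 3 each). The exact permutation test gave its smallest p, 0.1, and 0.25 after adjustment over the 5 ratios. With any 1 library left out the difference stayed between -1.14 and -1.02. Ischemia replicate 1, whose Adcy6 was the highest of all in FPKM (sham replicate 2 was higher in scaled counts, at 172.9 against 161.1 CPM), had the same ratio as the other ischemia libraries within their spread.

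**Figure D3:**
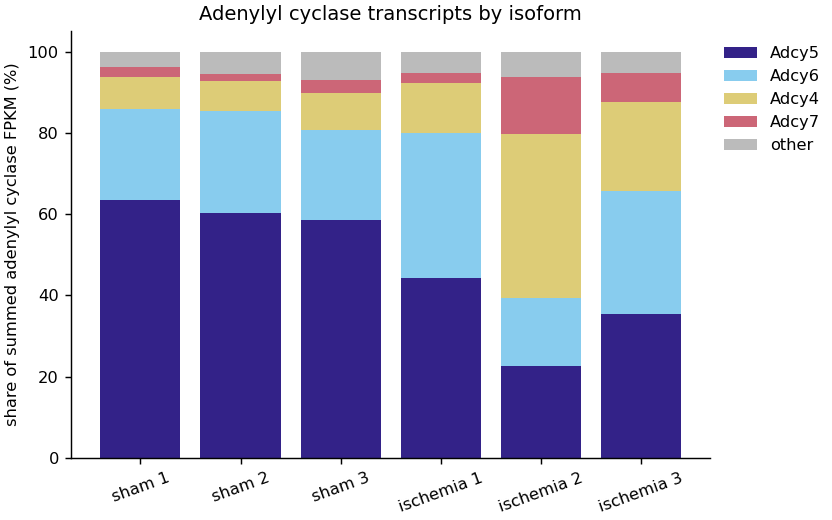
Share of each adenylyl cyclase in the summed FPKM of the 10 cyclase genes, as stacked bars for each library. Adcy5 takes 58.6% to 63.5% in sham and 22.5% to 44.3% in ischemia.

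Among all cyclase transcripts, the share of Adcy5 was lower in each ischemia library than in each sham library. Adcy5 held 63.5%, 60.3% and 58.6% of the summed FPKM of 10 cyclase genes in sham and 44.3%, 22.5% and 35.3% in ischemia. Adcy4, a cyclase found in vessel walls among other tissues, held 7.81%, 7.20% and 9.13% in sham and 12.3%, 40.5% and 21.9% in ischemia. Neither share overlapped between the groups. The level of Adcy4 itself was 7.71, 6.67 and 7.72 FPKM in sham against 9.15, 17.2 and 12.9 in ischemia, a log2 fold change of 0.73 ± 0.23 with an adjusted p of 0.0946 by edgeR, 0.0283 without ischemia replicate 1 and 0.0387 by DESeq2. With 1 sham library left out the adjusted p was 0.162 to 0.232 by edgeR. The log2 fold change was 0.41 (adjusted p 0.536) with the atrial covariate and 0.19 (0.941) with the adipocyte covariate. Adcy4 ranked the ischemia libraries as the neutrophil and monocyte genes did, and their part was not tested. Adcy7, abundant in blood cells, held 13.9% in ischemia replicate 2, the library with the most neutrophil and monocyte RNA, and 1.69% to 7.05% elsewhere. Its part in the lower share of Adcy5 was not tested. Of the 8 other cyclase genes 5 were tested and 0 passed in either direction by edgeR, beside 5.18% higher and 1.53% lower over all tested genes. Only 1 of them, Adcy4, had an unadjusted p under 0.05, and DESeq2 called it higher, beside 18.2% and 15.1% higher over all tested genes. Adcy3, a cyclase found in many tissues, ran from 1.39 to 2.85 FPKM in sham and from 0.989 to 1.31 in ischemia. Its groups did not overlap, and the log2 fold change was -0.76 ± 0.32 with an unadjusted p of 0.0505 and an adjusted p of 0.155 by edgeR. Adcy9, at 0.958 to 1.83 FPKM in sham and 0.532 to 0.855 in ischemia, did not overlap between the groups either, with an adjusted p of 0.168 by edgeR.

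The order of the genes by mean level differed at its top, though not in every library. In sham, Adcy5 led with a mean of 56.1 FPKM, followed by Adcy6 at 21.4, and neither range overlapped the next. Adra1b (15.4), Chrm2 (11.8) and Grk5 (9.09) overlapped in turn, Adrb1 (7.305) lay below them apart from the low end of Chrm2, and Adra1a (2.68) and Adrb3 (2.63) could not be ordered. In ischemia, Grk5 had the highest mean, 24.6 FPKM, but in ischemia replicate 1 both cyclases lay above it, Adcy5 at 32.9 and Adcy6 at 26.5 against 23.8. It was followed by Adcy5 (21.05), Adcy6 (17.2), Adra1b (7.255), Adrb1 (5.08) and Chrm2 (3.72), each within the spread of the next. Adra1a (1.26) lay below these, and Adrb3 (0.121) was last.

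**Figure D4:**
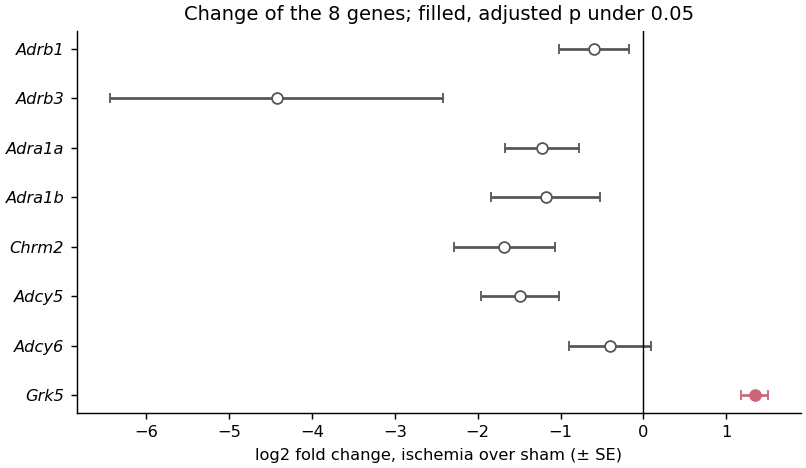
Log2 fold change of ischemia over sham with its standard error for the 8 genes by edgeR (points and bars; filled, adjusted p under 0.05). Grk5 is the 1 filled point, at 1.34, and the bar of Adcy6 crosses 0.

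Other genes of the pathway are given by list, each with the number past the edgeR threshold. Among 8 other adrenergic and muscarinic receptor genes, 1 was expressed enough to be tested, Adra1d, which did not pass. The alpha-2 genes and the muscarinic genes other than Chrm2 had means below the filter, and Chrm5 had no reads in any library. Of 16 tested G protein subunit genes 1 was higher and 0 were lower, beside 5.18% and 1.53% of all tested genes. At an unadjusted p under 0.05 there were 4 higher and 1 lower, beside 18.2% and 14.2%. DESeq2 called 3 higher and 2 lower, beside 15.1% and 12.6%. The 1 past the edgeR threshold was Gng12, a gamma subunit, with 12.3, 12.3 and 14.4 FPKM in sham and 23.3, 56.3 and 35.1 in ischemia (log2 fold change 1.45 ± 0.32, adjusted p 0.0497 by edgeR). Its groups lay well apart, with ischemia replicate 2 highest, as it was for the neutrophil and monocyte genes, whose part in the result was not tested. Gnas, which encodes the alpha subunit of Gs, had a log2 fold change of -0.40 ± 0.23 (adjusted p 0.264), and Gnai2, the main cardiac Gi alpha gene, one of 0.46 ± 0.22 (adjusted p 0.194). Gnao1, an alpha subunit gene of the Gi class, had 29.9, 4.68 and 32.3 FPKM in sham and 9.05, 2.54 and 7.51 in ischemia, high in the atrial-rich sham libraries as Chrm2 was.

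Kinases, arrestins and regulators of G protein signaling that end the signal numbered 14 tested genes besides Grk5. Of these 1 was higher and 1 was lower, beside 5.18% and 1.53% of all tested genes. At an unadjusted p under 0.05 there were 4 higher and 4 lower, beside 18.2% and 14.2%. DESeq2 called 4 higher and 3 lower, beside 15.1% and 12.6%. Rgs14 had 0.688, 0.727 and 0.566 FPKM in sham against 1.83, 8.25 and 3.38 in ischemia, a log2 fold change of 2.61 ± 0.56 with an adjusted p of 0.0484 by edgeR, and of 1.93 without ischemia replicate 2. Rgs6, which in the atrium and the pacemaker shortens the M2 receptor signal, had 22.0, 8.40 and 18.9 FPKM in sham against 4.14, 0.940 and 1.56 in ischemia, a log2 fold change of -2.91 ± 0.63 with an adjusted p of 0.0488. Both genes had groups without overlap, and Rgs6 was lowest of the sham libraries in replicate 2, which had little atrial RNA. With the atrial score as a covariate the log2 fold change of Rgs6 was -2.05 with an adjusted p of 0.232. Gnb5, the beta subunit that pairs with Rgs6, had a log2 fold change of -1.50 ± 0.40 with an adjusted p of 0.0697. Rgs16 lay just outside the threshold, with 2.34, 4.52 and 2.77 FPKM in sham and 11.9, 55.1 and 17.0 in ischemia (log2 fold change 2.94 ± 0.65, adjusted p 0.0504 by edgeR). Rgs14 and Rgs16 ranked the ischemia libraries as the neutrophil and monocyte genes did, and the part of those genes was not tested. The arrestin genes had opposite signs, -0.84 ± 0.33 for Arrb1 and 0.98 ± 0.25 for Arrb2, with adjusted p of 0.136 and 0.0623.

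Downstream of cyclic AMP, 16 genes of protein kinase A, its anchoring proteins and Epac were tested. Of these 0 were higher and 1 was lower, beside 5.18% and 1.53% of all tested genes. The 1 was Akap6, which anchors protein kinase A at the nuclear envelope of myocytes, with 12.2, 9.43 and 12.4 FPKM in sham and 5.11, 2.91 and 5.02 in ischemia. Its groups did not overlap, and the log2 fold change was -1.44 ± 0.28 with an adjusted p of 0.0425 by edgeR. Prkaca, the main catalytic subunit, had 93.4, 126.7 and 93.9 FPKM in sham and 78.8, 26.6 and 43.9 in ischemia (log2 fold change -1.17 ± 0.46, adjusted p 0.14). In all, 8 of the 16 had an unadjusted p under 0.05 and a negative log2 fold change, and 0 had one with a positive log2 fold change, beside 14.2% and 18.2% of all tested genes. DESeq2 called 0 higher and 5 lower, beside 15.1% and 12.6% of all tested genes. Some of the 8 were highest or lowest in a library that also stood out in its marker genes. Prkar1b and Prkar2b, regulatory subunits, were high in sham replicate 3 alone, the library with the most fat RNA, at 5.90 and 12.4 FPKM against 0.336 to 1.45 and 1.58 to 2.45 elsewhere. Prkaca was lowest in ischemia replicate 2, which had the lowest sum of the cardiomyocyte genes. The part of these cells in the count was not tested.

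Phosphodiesterases, which break cyclic nucleotides down, numbered 14 tested genes, of which 0 passed in either direction by edgeR, while DESeq2 called 0 higher and 6 lower, beside 15.1% and 12.6% of all tested genes. At an unadjusted p under 0.05 there were 1 higher and 6 lower, beside 18.2% and 14.2% of all tested genes, and the median log2 fold change was -0.98, beside -0.0015 over all tested genes. The smallest p belonged to Pde1a, a calmodulin-activated enzyme, with a log2 fold change of -1.63 ± 0.41 and an adjusted p of 0.06 by edgeR and 0.00136 by DESeq2. It had 6.13, 1.91 and 4.82 FPKM in sham against 1.55, 1.24 and 1.44 in ischemia, so every ischemia library lay lower. The sham libraries with the most Pde1a were the atrial-rich ones. With the atrial score as a covariate its log2 fold change was -0.96 (adjusted p 0.413), and against sham replicate 2 alone it was -0.73. Pde3a, which sets cyclic AMP near the calcium stores of the myocyte, had a log2 fold change of -1.15 ± 0.32 with an adjusted p of 0.0768 by edgeR, 0.0492 without ischemia replicate 1 and 0.00921 by DESeq2. With 1 sham library left out its adjusted p was 0.139 to 0.203 by edgeR. With the cardiomyocyte scaling, which moved the median of all genes to 0.64, its log2 fold change was -0.51 (adjusted p 0.645).

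On the Gq side, 12 effector genes were tested, of which 0 were higher and 1 was lower, beside 5.18% and 1.53% of all tested genes. At an unadjusted p under 0.05 there were 3 higher and 4 lower, beside 18.2% and 14.2%. DESeq2 called 2 higher and 4 lower, beside 15.1% and 12.6%. The 1 past the edgeR threshold was Plcb4, a phospholipase C that Gq switches on, with 10.99, 5.94 and 8.31 FPKM in sham against 4.10, 3.85 and 4.02 in ischemia. The ischemia libraries were close together below all sham libraries, with a log2 fold change of -1.14 ± 0.21 and an adjusted p of 0.0382 by edgeR. Sham replicates 1 and 3, rich in atrial RNA, had the most Plcb4. With the atrial score as a covariate its log2 fold change was -0.96 (adjusted p 0.286 by edgeR). Its relatives Plcb1, Plcb2 and Plcb3 had positive log2 fold changes of 1.72, 1.30 and 0.53, with adjusted p of 0.0888, 0.118 and 0.108. In FPKM these relatives ranked the ischemia libraries as the neutrophil and monocyte genes did, whose part was not tested. Of the 10 genes of the CREB family and its coactivators, which carry cyclic AMP to the nucleus, 0 passed by edgeR, 2 were higher at an unadjusted p under 0.05 (18.2% of all tested genes were) and 9 had positive log2 fold changes, as had 6968 of the 13964 tested genes. Atf1, the 1 gene of them that DESeq2 called (adjusted p 0.0284), had one of 0.48 ± 0.16 (adjusted p 0.101 by edgeR) and Crtc2 one of 0.42 ± 0.16 (adjusted p 0.141).

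The calls of Gng12, Rgs14, Rgs6, Akap6 and Plcb4 were each lost in 10 to 13 of the 18 or 19 alternatives, both with libraries left out and with all 6 kept. With all 6 libraries, Gng12 had an adjusted p of 0.0513 with RLE scaling (relative log expression, the size factors of DESeq2), Plcb4 0.0646 with limma on log2(FPKM + 0.1), Akap6 0.0529 without the filter, and Akap6 and Plcb4 0.347 and 0.607 with the cardiomyocyte scaling. In that last fit their log2 fold changes were -1.01 and -0.60, with the median of all genes at 0.64 instead of -0.0015. All 5 lost the threshold without sham replicate 1 (adjusted p from 0.157 to 0.174), sham replicate 2 (0.0828 to 0.102), sham replicate 3 (0.139 to 0.149) or ischemia replicate 3 (0.126 to 0.159), and without ischemia replicate 2 Akap6 alone kept it while the others had 0.0635 to 0.0735. None of the 5 changed sign in any alternative.

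**Figure D5:**
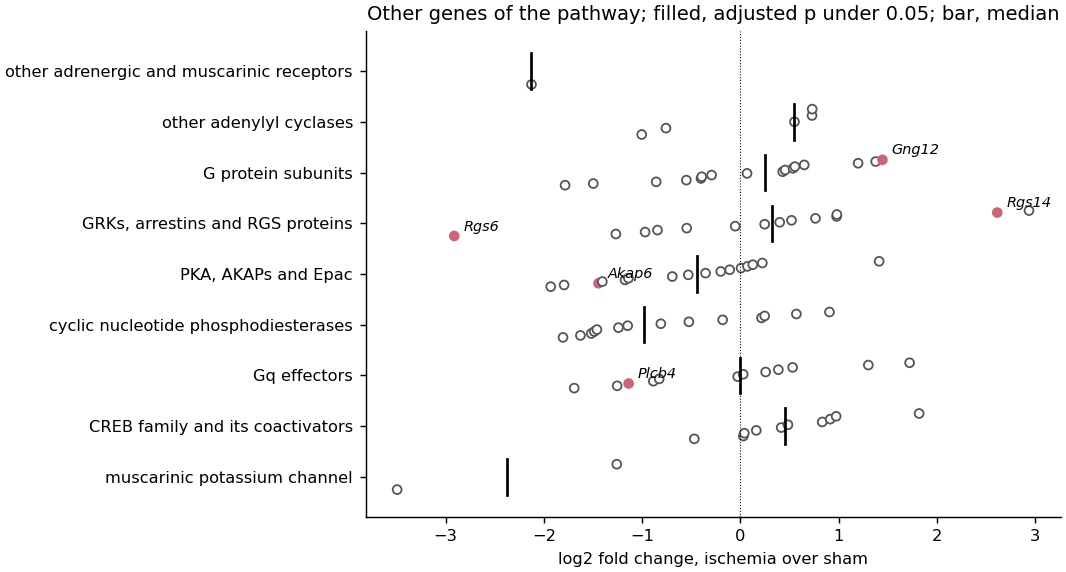
Log2 fold change of ischemia over sham by edgeR for each tested gene of the pathway lists (1 point per gene; filled and named, adjusted p under 0.05; bar, median of the list). The filled points are Gng12, Rgs14, Rgs6, Akap6 and Plcb4, and the phosphodiesterase median is at -0.98.

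The genes whose log2 CPM tracked each member most closely over the 6 libraries were, for Grk5, Npm3, Prmt1 and Traf7, each with a Pearson r of 0.998 or 0.999. For Adcy5 they were Gigyf1, Tmem38a and Ankmy2 (0.998 to 0.999), and for Adcy6 they were Myrip, F8a1 and Wdr59 (0.993 to 0.994). Adrb1 was tracked by Abcc10, Rsph3 and Acad8 (0.997 to 0.999), Adra1b by Oxsm, Mmab and Sirt3 (0.998), and Adra1a by Ubr2, Limd1 and Arih2 (0.986 to 0.996). Chrm2 was tracked by Brms1l, Napepld and Sgcb (0.996 to 0.998), and Adrb3 by Zfp574, Mst1 and Agt (0.995 to 0.998). These are the highest correlations among the 13964 tested genes after genes under placeholder names, such as LOC, RGD or AABR, were left out. The 6 libraries share the split into groups, so values this high describe the ranking only. Among the marker lists, the neutrophil and monocyte genes had the strongest correlation, of either sign, with Grk5 (0.953), Adcy5 (-0.931) and Chrm2 (-0.89), the cardiomyocyte genes with Adrb1 (0.811), Adra1b (0.832) and Adcy6 (0.879), the adipocyte genes with Adrb3 (0.996) and the endothelial genes with Adra1a (0.871).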

How the data were processed

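RNA was extracted with Trizol and libraries were made with a stranded total RNA kit. The submitters' processing notes name STAR and HTSeq without versions, and the genome build and annotation are not given in the sources used here, so positions of genes are printed as the table lists them. The authors deposited whole-number read counts per gene, not normalized, for 32623 genes. The deposited FPKM values, counts divided by gene length and library size, hold 0.0001 in place of 0. Columns of annotation were used for gene names and positions only.

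The 13964 genes whose FPKM averaged 0.5 or more across all 6 samples entered the test on counts, run with the quasi-likelihood test of edgeR 4.0.16 (R 4.3.3) after TMM scaling, two-sided, without covariates, with Benjamini-Hochberg adjustment over all tested genes and a threshold of 0.05. Standard errors were derived from the F statistic. Ratios of FPKM used two-sided exact permutation tests. CPM are counts scaled to library size after TMM. At these depths 3 counts equal 0.0371 to 0.0459 CPM. Overlap of groups was judged on scaled counts. The tests were checked on simulated data. Alternatives were DESeq2 1.42.0, limma 3.58.1 on log2(FPKM + 0.1) and log2(FPKM + 1), other scalings and filters, an atrial covariate, a replicate block and each sample left out. An adipocyte covariate (Adipoq, Plin1, Cidec, Lep) and the removal of sham replicates 1 and 3 together were chosen after seeing the data. Figures used matplotlib 3.10.9.

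The members and the pathway and marker lists were chosen with earlier results of these data known. Named were the members, the genes of each pathway list past the threshold or else the 2 with the smallest p. Also named were the 3 genes most correlated with each member, leaving out genes under placeholder names. Outside that rule, Adcy7, Adcy9, Gnas, Gnai2, Gnao1, Gnb5, Grk3, Grk4, Grk6, Rgs16, Arrb1, Arrb2, Prkaca, Prkar1b, Prkar2b, Plcb1, Plcb2, Plcb3, Dbh, Prph and the genes of catecholamine and acetylcholine handling were chosen after values were seen. Grk2 was named as a partner in a ratio. Some genes of the lists and 1 of the 5 ratios are not reported here. Reads of near-identical or overlapping genes may have been split or lost in counting.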

Additional observations from a re-analysis of the deposited data

How the results depend on the processing

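With 3 samples per group no exact test can pass the threshold. Sham replicates 1 and 3 held the most atrial RNA and ischemia replicates 2 and 3 the least fat RNA, so cell content and group cannot be told apart fully, and depth limits Adrb3 where it had 0 counts. The call of Grk5 held in 10 of 19 alternatives, and its log2 fold change stayed between 1.17 and 2.01, always higher in ischemia. The member called higher became 0 when libraries were scaled to the cardiomyocyte genes (2.01, adjusted p 0.0979; the median of all genes was then 0.64, so 1.37 above it), with the replicate block (adjusted p 0.0943), with the atrial covariate (0.226), with the adipocyte covariate (0.405) and without sham replicates 1 and 3 together (0.394, a fit with 1 sham library). In the first 4 of these fits the unadjusted p of Grk5 stayed under 0.05, and the genes with an unadjusted p under 0.05 numbered 2739, 3349, 1985 and 980. Genes higher and lower, 723 and 214, became 2110 and 1754 with DESeq2, 342 and 30 with the cardiomyocyte scaling, 0 and 0 with the replicate block, 0 and 0 with the atrial covariate, 3 and 0 with the adipocyte covariate and 0 and 0 without sham replicates 1 and 3 (1707 at an unadjusted p under 0.05). Genes lower were 83, beside 509 higher, with total counts only, and 93, beside 493 higher, without a filter. DESeq2 called 3 members lower. With 1 replicate left out, members higher ran from 0 to 1, members lower from 0 to 3 (the 3 include Adrb3, then at 0 counts in ischemia), genes higher from 0 to 1495 and genes lower from 0 to 1115, the upper ends without ischemia replicate 1. The fitted sign turned for Adcy6 (0.018) with the cardiomyocyte scaling, although against the median of all genes it was -0.62, and the sign turned for Adrb1 (0.068), Adrb3 (0.047) and Adcy6 (0.12) with the adipocyte covariate, and in none of these did the gene pass the threshold. With 1 replicate left out, the log2 ratio difference of Adra1a to Adra1b ran from -0.12 to 1.06, with the turned sign without ischemia replicate 2. The cause of these changes was not tested. Deviations from the group mean correlated at -0.05, -0.07 and -0.19 for same-numbered samples, with a mean of 0.0501 for the other pairings. Deviations sum to 0 within a group, so these correlations cannot decide whether same-numbered samples share a batch. The filter at a mean FPKM of 5 left out Adrb3 and Adra1a, and Adrb3 fell under the filter without sham replicate 3.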

Other observations

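Genes that make, carry and clear the transmitters of these receptors were also read, a list chosen after the data were seen. Of 12 genes 10 were tested, and 0 passed in either direction by edgeR, with 0 higher and 4 lower at an unadjusted p under 0.05, beside 18.2% and 14.2% of all tested genes. DESeq2 called 0 higher and 5 lower, beside 15.1% and 12.6% of all tested genes. The log2 fold change was negative in 8 of the 10, beside 6996 of the 13964 tested genes, with a median of -1.36, beside -0.0015. Maoa, which oxidizes noradrenaline, had 25.5, 29.1 and 27.9 FPKM in sham and 19.8, 20.2 and 12.8 in ischemia, without overlap (log2 fold change -0.76 ± 0.23, adjusted p 0.0859 by edgeR). Slc22a3, which takes catecholamines up into cells other than neurons, had 3.30, 5.02 and 4.81 FPKM in sham and 2.18, 0.128 and 0.461 in ischemia (-2.33 ± 0.97, adjusted p 0.155). Ddc, which makes dopamine, had a log2 fold change of -1.44 ± 0.42 (adjusted p 0.0805).

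On the cholinergic side, Ache and Bche, whose enzymes split acetylcholine and other choline esters, had log2 fold changes of -2.80 ± 0.98 and -1.82 ± 0.60, with adjusted p of 0.114 and 0.103 by edgeR. Slc18a3, which loads acetylcholine into vesicles of vagal neurons, had 304, 0 and 2024 counts in sham and 92, 4 and 4 in ischemia. Slc5a7, the choline transporter of the same neurons, had 145, 0 and 662 counts in sham and 8, 0 and 0 in ischemia and was below the filter. Both were highest in sham replicate 3, next in sham replicate 1 and lowest or absent elsewhere, with some reads in ischemia replicate 1. Sham replicates 1 and 3 are the libraries with the most atrial RNA, at 15120 and 14230 FPKM. Prph, a filament gene of peripheral neurons, was also highest there, with sham replicate 3 above sham replicate 1 as for both transporters, at 13.01, 3.77 and 53.6 FPKM in sham and 0.910 to 2.30 in ischemia. Dbh, which makes noradrenaline in sympathetic neurons, did not follow it between the groups, at 1.37, 0.364 and 6.12 FPKM in sham and 2.57, 2.47 and 4.84 in ischemia. The part of either in these values was not tested.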
